A study of Carassius auratus with 9 samples.

Results

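Muscle transcriptomes of Hefang crucian carp, a diploid cultured strain of Carassius auratus, were compared between the HA and MA diets. Both diets were a commercial basal feed with 3.4% added lysine (Lys), and they differed only in added methionine (Met), which was 3.4% in HA and 1.7% in MA. The comparison therefore addressed how muscle differed between the amounts of added Met when added Lys was held constant. It rested on 3 HA and 3 MA libraries, chosen by diet, of the 9 in the series. The other 3 came from fish on the basal feed with neither amino acid added (LA). They entered through the choice of genes tested, the scaling of counts and the estimate of spread, and as a reference level. All fish were of the same strain and were fed for 8 weeks, and the Met and Lys already present in the feed were not specified by the manufacturer, so the diets are known by the amounts added. Each library was made from poly(A)-enriched muscle RNA and is described as a biological replicate, but whether it held 1 fish or several, and from which tank, is not given in the sources used here. Each diet had its own tanks, so if the libraries of a diet came from 1 tank, tank and diet cannot be told apart. In bulk muscle RNA, fewer cells of a type and less RNA per cell cannot be told apart.

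Methionine is an essential amino acid that starts protein synthesis and, as S-adenosylmethionine, donates methyl groups. Its sulfur then passes through homocysteine either back to methionine, with methyl groups from folate or betaine, or on to cysteine, taurine and glutathione. Creatine synthesis is a main use of the methyl groups, and decarboxylated S-adenosylmethionine builds the polyamines. White trunk muscle of carp is dominated by fast fibres, whose contraction depends on fast myosin heavy chain, the fast troponins and the calcium buffer parvalbumin.

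Total counts were 13962770 to 17177610 in the MA libraries and 14326677 to 15794880 in the HA libraries, and 23946 genes had enough counts to be tested. The muscle label was borne out by the genes of highest mean count, the creatine kinase M-type copies LOC113049569 and LOC113115064 and parvalbumin beta (LOC113046611), which had levels of 82196 to 98763, 43806 to 59614 and 44300 to 66902 CPM (the count relative to the size of its library, scaled by TMM) across the MA libraries and overlapped with HA. Libraries 1 and 2 of each diet differed most, and library 3 lay between them. For genes with a 4-fold or larger gap from library 1 to library 2, library 3 was intermediate for 99.6% of 570 genes in MA and for 99.0% of 943 genes in HA. The same held for 99.2% of 1311 genes in LA. In the study's mapping table MA2, HA2 and LA1 had the lowest share of mapped reads in their diets. The p-values below treat the 3 libraries of a diet as independent and measure only the spread between them, which is narrowed where library 3 lies between the others. With libraries 1 and 2 alone no gene passed an adjusted p of 0.05, and 431 of 24496 genes had an unadjusted p under 0.05.

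**Figure D1:**
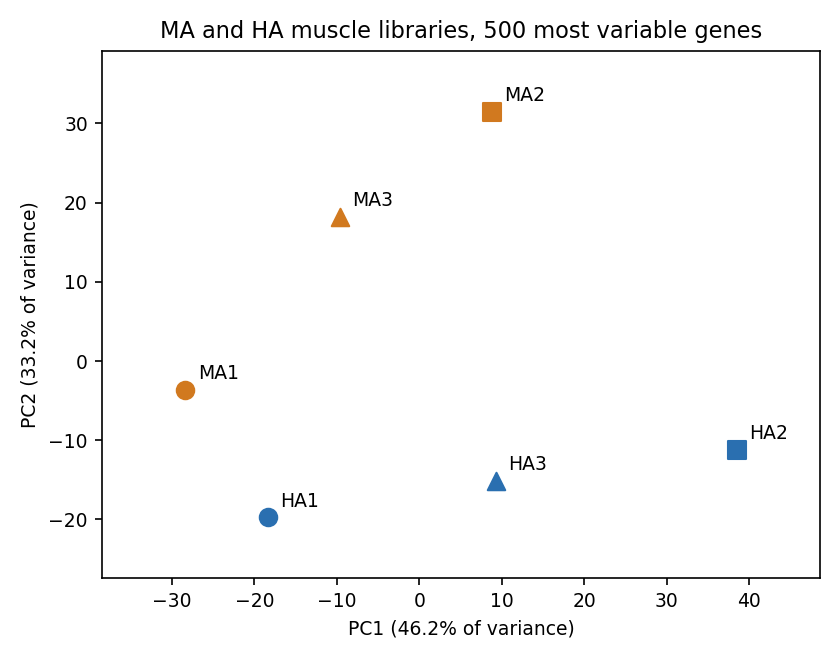
Principal components of log2(CPM + 0.5) for the 500 most variable genes in the MA (orange) and HA (blue) libraries, with circles for library 1, squares for library 2 and triangles for library 3. PC1 held 46.2% of the variance and separated HA2 from MA1, PC2 held 33.2%, and library 3 of each diet lay between libraries 1 and 2.

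Between HA and MA, 13 of 23946 genes passed, which is 0.0543% of the genes tested (edgeR's quasi-likelihood test, Benjamini-Hochberg adjustment). Of these, 5 were higher in HA (0.0209%) and 8 were lower (0.0334%). At an unadjusted p under 0.05 there were 2404 genes (10%), of which 1245 were higher (5.2%) and 1159 lower (4.84%), and the median log2 fold change over all genes was 0.02. The HA libraries all lay above the MA libraries for 2203 genes (9.2%) and below them for 2047 (8.55%). The count of calls depended on single libraries. It was 0 without HA3, 3 without MA3 or LA3, 4 without MA2, 6 without HA1, 35 without LA1 and 75 without MA1, while DESeq2 on the same counts called 296 genes, the 13 among them. With the rank of the mapped share as a block in the fit, 98 genes were called, the 13 among them. The replicate number as a block gave 27 calls with the HA and MA libraries, 6 of the 13 among them. With all 9 libraries that block gave 0 calls. The cause of the library arrangement was not tested.

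Fast fibre genes changed in opposite directions. A fast skeletal myosin heavy chain copy, LOC113094704 (chromosome 6, 9432180 to 9442707, minus strand, assembly ASM336829v1), the motor protein of the thick filament, stood at 202, 1386 and 753 CPM in MA1, MA2 and MA3 and at 8.67, 10.5 and 8.61 CPM in HA1, HA2 and HA3. All HA libraries lay far below all MA libraries, and the MA libraries themselves spread widely. Its log2 fold change was -6.40 ± 0.75 (SE, adjusted p = 0.027). A second copy, LOC113091543 on an unplaced scaffold, went the other way, from 614, 550 and 503 CPM in MA to 1768, 1760 and 2033 CPM in HA. These libraries were tight within each diet, and the log2 fold change was 1.74 ± 0.17 (adjusted p = 0.00997).

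The 38 fast myosin heavy chain copies in the table summed to 68200 ± 24400 CPM in MA and 70600 ± 12300 CPM in HA (SD, n = 3), and the groups overlapped. The copy that fell made up 1.14% of that sum in MA and 0.0131% in HA, and the copy that rose made up 0.814% and 2.62%. Of the 30 copies tested, 10 had a positive and 20 a negative log2 fold change. Counts of near-identical copies depend on how reads with several matches were assigned, which is not given in the sources used here, so the identity of the copy is less certain than the sum.

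Parvalbumin-7 (LOC113039862, chromosome 22, 17602499 to 17631716), a calcium buffer that speeds relaxation, had 85.8, 260 and 159 CPM in MA and 6.41, 6.40 and 5.28 CPM in HA. The groups were far apart, again with MA2 highest, and the log2 fold change was -4.80 ± 0.44 (adjusted p = 0.00607). Its 3 copies together overlapped between diets, at 186 to 1033 CPM in MA and 29.5 to 240 CPM in HA. The 11 parvalbumin genes tested were grouped by name after the values were seen. They summed to 111900 to 138100 CPM in MA and 92670 to 130600 CPM in HA, so the groups overlapped. Kyphoscoliosis peptidase (LOC113112850, chromosome 13, 16158565 to 16164254), a muscle protein that mice need for normal muscle growth, fell from 12.3, 10.1 and 11.2 CPM to 1.77, 1.93 and 2.14 CPM. That was a log2 fold change of -2.52 ± 0.22 (adjusted p = 0.00574). Cytochrome b-c1 complex subunit 8 (LOC113075395), a subunit of respiratory complex III, rose from 3.52, 2.79 and 5.09 CPM in MA to 30.2, 38.2 and 28.7 CPM in HA, a log2 fold change of 3.09 ± 0.33 (adjusted p = 0.0138). Its 3 copies summed to 55.9 to 60.2 CPM in MA and 65.2 to 79.6 CPM in HA, so the groups stayed apart but by much less than for the single copy.

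**Figure D2:**
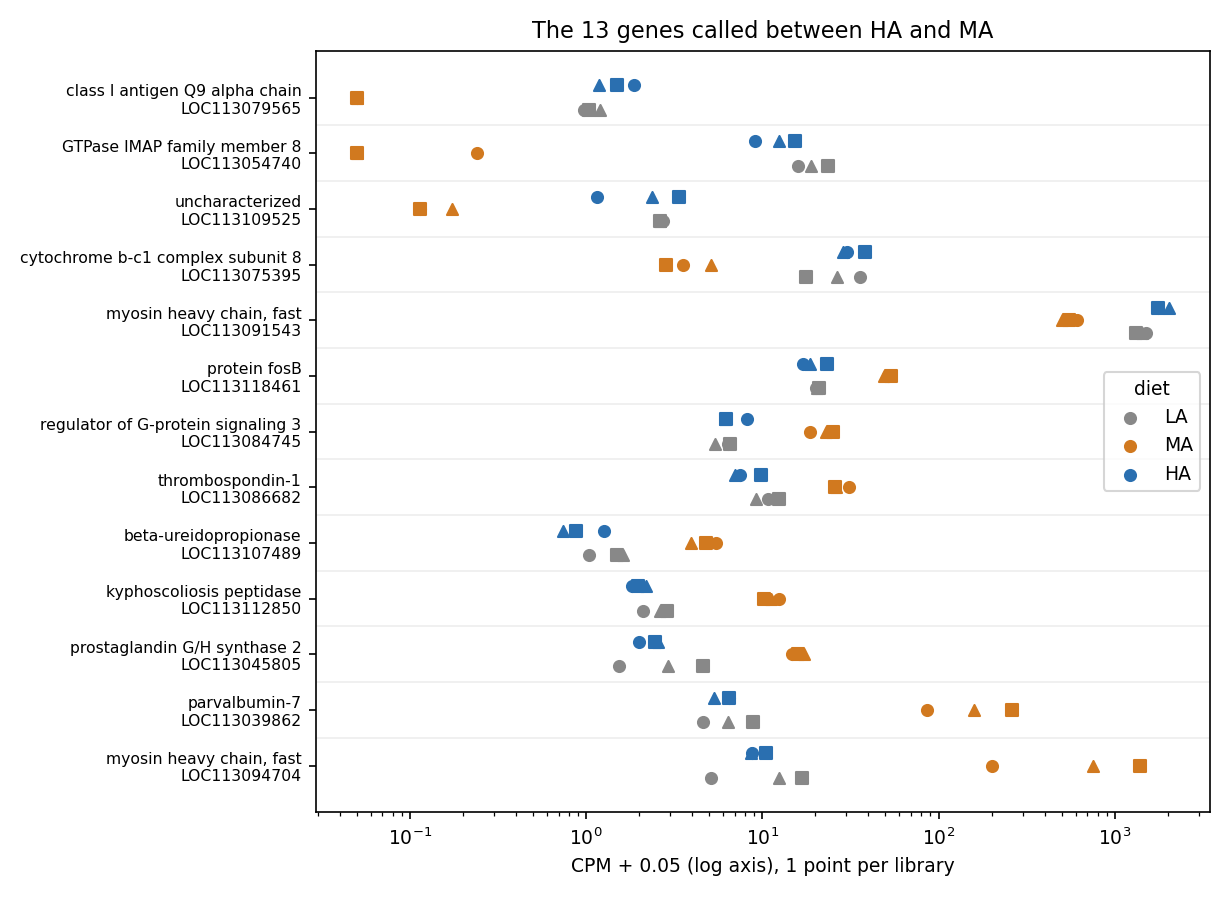
Level of the 13 called genes in every library, as CPM + 0.05 on a log axis, with circles, squares and triangles for libraries 1, 2 and 3 of LA (grey), MA (orange) and HA (blue). In each gene the LA libraries lay on the HA side of all 3 MA libraries, for example at 4.55 to 8.82 CPM for parvalbumin-7 against 85.8 to 260 CPM in MA.

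Both called immune genes were nearly silent in MA. GTPase IMAP family member 8 (LOC113054740, chromosome 3, 14128047 to 14190658), of a GTPase family known in mammals for roles in lymphocytes, had 3, 0 and 0 counts in MA and 148, 222 and 196 counts in HA. The ratio of the depth-scaled totals was 190 (95% exact counting interval 64.7 to 925), and the gene passed at an adjusted p of 0.00574. A class I histocompatibility antigen of the H-2 Q9 type (LOC113079565), a molecule that presents peptides to T cells, had no count in MA and 30, 21 and 18 counts in HA. Set against a floor of 3 counts over the MA group it was at least 23.2-fold higher in HA (adjusted p = 0.0301). These intervals and floors cover counting error only. Summed over all copies with the same name, both overlapped between diets, at 49.0 to 56.2 CPM in MA and 49.5 to 95.1 CPM in HA for the 64 IMAP family member 8 genes and at 1.30 to 18.1 and 1.58 to 9.10 CPM for the 4 Q9 genes. An uncharacterized gene (LOC113109525), named because it passed, had 0.0640, 0.0649 and 0.124 CPM in MA and 1.10, 3.30 and 2.32 CPM in HA (log2 fold change 4.59 ± 0.55, adjusted p = 0.027).

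The remaining 5 called genes were lower in HA and include signaling and matrix genes. Prostaglandin G/H synthase 2 (LOC113045805, chromosome 27, 20252747 to 20256080), the inducible enzyme of prostaglandin synthesis, fell from 14.7, 16.0 and 17.3 CPM in MA to 1.95, 2.41 and 2.51 CPM in HA. Its log2 fold change was -2.80 ± 0.35 (adjusted p = 0.0301), and it held 98.0% of the counts of its named copies in MA. The fosB protein gene (LOC113118461, chromosome 18, 11844939 to 11852348), an immediate early subunit of the AP-1 transcription factor, fell from 51.7, 53.7 and 49.3 CPM to 16.9, 23.1 and 18.7 CPM (-1.40 ± 0.18 on the log2 scale, adjusted p = 0.0322). Both genes had narrow ranges within each diet and a wide gap between diets.

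Thrombospondin-1 (LOC113086682), a matrix glycoprotein, had 31.1, 25.8 and 26.1 CPM in MA and 7.39, 9.84 and 6.91 CPM in HA (log2 fold change -1.78 ± 0.21, adjusted p = 0.027). Regulator of G-protein signaling 3 (LOC113084745, chromosome 5, 29378019 to 29440004), which ends G-protein signals by speeding GTP hydrolysis, had 18.6, 25.2 and 23.0 CPM in MA and 8.18, 6.195 and 6.09 CPM in HA (-1.70 ± 0.21, adjusted p = 0.0301). Beta-ureidopropionase (LOC113107489, chromosome 8, 18718395 to 18730454), the last enzyme of pyrimidine breakdown and a source of beta-alanine, had 5.44, 4.74 and 3.91 CPM in MA and 1.22, 0.826 and 0.691 CPM in HA (-2.35 ± 0.32, adjusted p = 0.0479). None of these 5 genes overlapped between diets. When copies of the same name were summed, 7 of the 11 names among the called genes stayed apart between HA and MA, 1 higher and 6 lower, and 4 overlapped. Each sum holds the called copy, which made up 20.1% to 98.0% of the MA sum in the 6 lower names. The sums are therefore not separate evidence for the calls, and the share of separate sums over all names was not determined.

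The LA level of these genes was closer to HA than to MA. For all 13, the LA libraries lay on the HA side of every MA library, a share that was not determined over all genes. The LA mean was nearer to HA on the log scale for all 13, against 57.2% of all genes tested. The 13 were chosen by their gap between HA and MA, so the share over all genes is not a like comparison. Of the 13 genes, 11 also passed in MA against LA, where 0.0835% of all genes passed, and none in HA against LA, where edgeR called 0% of all genes and 1489 had an unadjusted p under 0.05. Fast myosin heavy chain LOC113094704, for example, differed by 6.10 on the log2 scale between MA and LA (adjusted p = 0.025) and by -0.30 between HA and LA (adjusted p = 0.996). The gene of kyphoscoliosis peptidase, LOC113112850, gave 2.17 (adjusted p = 0.013) and -0.36 (adjusted p = 0.89). The 3 comparisons share libraries, so these values are not separate evidence.

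Among genes that did not pass, 8 with separate libraries are described next, the 2 of smallest p on the lower side and the 6 on the higher side, at adjusted p of 0.0606 to 0.08. The split is set by the naming rule, and trim54, described with the sarcomere scaffold genes, had a p in the same range. Sarcolipin (LOC113058843), a small inhibitor of the calcium pump of the sarcoplasmic reticulum, had 79.4, 10.8 and 38.6 CPM in MA and 1.95, 1.65 and 2.07 CPM in HA. A fast troponin I copy (LOC113051645), the inhibitory subunit of the thin filament switch, had 23.2, 168 and 88.7 CPM in MA and 0.733, 2.48 and 1.13 CPM in HA. The MA libraries differed several-fold for both, with MA1 highest for sarcolipin and MA2 highest for troponin I. The 6 that were higher in HA had tighter groups. They included signal transducer and activator of transcription 1 (LOC113094065), a mediator of interferon signals, at 3.39, 4.09 and 3.78 CPM in MA and 11.97, 9.57 and 10.1 CPM in HA. The splicing regulator RNA binding protein fox-1 homolog 1 (LOC113079842) had 6.91, 4.80 and 6.76 CPM in MA and 15.6, 15.2 and 15.02 CPM in HA. The alpha subunit of calcium/calmodulin-dependent protein kinase type II (LOC113038291) had 19.2, 19.9 and 20.2 CPM in MA and 52.2, 38.7 and 45.9 CPM in HA. Fer-1-like protein 6 (LOC113108864), uronyl 2-sulfotransferase (LOC113077884) and guanylyl cyclase-activating protein 1 (LOC113064678) had log2 fold changes of 2.25, 2.71 and 2.27.

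No gene of the methionine cycle passed. Of the 23 tested, 11 had positive and 12 negative log2 fold changes, with a median of -0.04 beside 0.02 for all genes, and the smallest adjusted p was 0.388. Of the 23, 4 were higher and 1 lower at an unadjusted p under 0.05, which is 17.4% and 4.35% beside 5.2% and 4.84% of all genes, but without HA2 these became 1 and 2, and without HA3 1 and 0. Betaine-homocysteine S-methyltransferase 1 (LOC113080755), which remethylates homocysteine with betaine, had 12.7, 17.8 and 25.2 CPM in MA and 34.9, 25.5 and 34.2 CPM in HA (log2 fold change 0.76 ± 0.31, adjusted p = 0.44). Methionine synthase (mtr), which does the same with folate, had 2.94, 3.11 and 3.16 CPM in MA and 3.60, 6.61 and 6.09 CPM in HA (0.82 ± 0.29, adjusted p = 0.39). The libraries of these genes did not overlap between diets, and HA lay on the higher side. Methylenetetrahydrofolate reductase (LOC113097248), which supplies methyl-folate, was placed likewise at 4.67 to 7.01 CPM in MA and 9.04 to 9.91 CPM in HA, as was adenosylhomocysteinase B (LOC113050260), which hydrolyses the product of methyl transfer, at 5.71 to 15.7 and 16.3 to 24.9 CPM. The adenosylhomocysteinase B copy with more counts, LOC113105091, overlapped, at 30.2 to 46.2 CPM in MA and 45.5 to 54.8 CPM in HA. An S-adenosylmethionine synthase copy (LOC113094317), the entry enzyme of the cycle, had 43.5, 9.73 and 28.4 CPM in MA and 16.9, 23.5 and 19.98 CPM in HA, and its diets overlapped.

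In the sulfur branch, 9 of 14 tested genes had positive log2 fold changes, with a median of 0.17 that became 0.02 without HA2, and none passed. The taurine transporter LOC113070587, which brings the osmolyte taurine into the cell, was almost constant in MA at 52.2, 52.2 and 51.4 CPM and spread in HA from 54.5 through 87.8 to 116 CPM. Cysteine dioxygenase type 1 (LOC113106915), which commits cysteine to taurine, had 1.73 to 2.92 CPM in MA and 3.52 to 4.27 CPM in HA, whereas 2-aminoethanethiol dioxygenase (LOC113117099), which makes hypotaurine from cysteamine, had 3.05 to 3.97 CPM in MA and 1.82 to 2.41 CPM in HA. Their log2 fold changes were 0.76 ± 0.30 and -0.74 ± 0.26 (adjusted p = 0.43 and 0.39). Cystathionine beta-synthase (LOC113108959), the first enzyme of transsulfuration, had 34.8, 5.25 and 19.7 CPM in MA and 19.5, 22.5 and 20.5 CPM in HA. Its HA libraries lay inside the MA range.

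Creatine genes, which serve a main use of methyl groups, differed by step. Glycine amidinotransferase, which makes guanidinoacetate, was lower in HA in both copies. LOC113061329 had 34.1, 26.8 and 27.4 CPM in MA and 10.7, 13.4 and 13.1 CPM in HA (log2 fold change -1.25 ± 0.30, adjusted p = 0.24), and LOC113118439 had 46.9 to 51.4 CPM in MA and 29.2 to 37.1 CPM in HA (-0.57 ± 0.27, adjusted p = 0.54). Both creatine transporter 1 copies were higher, LOC113074147 with 45.3 to 52.0 CPM in MA and 89.2 to 108 CPM in HA (1.01 ± 0.40, adjusted p = 0.43) and LOC113107001 with 65.0 to 86.3 and 116 to 132 CPM (0.68 ± 0.34, adjusted p = 0.56). These 4 of the 5 genes tested did not overlap between HA and MA, beside 17.7% of all genes, and none passed. The LA libraries spanned 33.7 to 136 CPM for LOC113074147 and 57.9 to 180 CPM for LOC113107001, which covers MA and HA. For the amidinotransferase copies LA lay below MA, at 6.25 to 15.1 CPM (LOC113061329) and 15.3 to 32.8 CPM (LOC113118439). Guanidinoacetate N-methyltransferase (gamt), which adds the methyl group, had the most counts of the 5, at 614, 556 and 540 CPM in MA and 478, 937 and 596 CPM in HA, and its diets overlapped.

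Of 36 polyamine and methionine salvage genes, 20 had positive log2 fold changes, with a median of 0.01. At an unadjusted p under 0.05, 2 were higher (5.56%) and 2 lower, near the share of all genes. Ornithine decarboxylase antizyme 1 (LOC113064938), which directs the first polyamine enzyme to degradation, had 43.9, 42.0 and 44.3 CPM in MA and 70.4, 78.8 and 60.8 CPM in HA (0.69 ± 0.17, adjusted p = 0.25). Spermine oxidase (LOC113109605), which breaks spermine down, had 30.5 to 34.6 CPM in MA and 42.4 to 59.3 CPM in HA (0.61 ± 0.19, adjusted p = 0.33). The diets were apart for both genes, and neither passed. On the lower side, an antizyme inhibitor 1 copy (LOC113115758) had 1.56 to 2.05 CPM in MA and 0.413 to 0.880 CPM in HA (-1.45 ± 0.43, adjusted p = 0.32). A diamine acetyltransferase 1 copy (LOC113078589) had 0.744 to 1.02 and 0 to 0.183 CPM (adjusted p = 0.40). Over the list, HA libraries lay above all MA libraries for 2 genes and below them for 6, beside 9.2% and 8.55% of all genes.

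**Figure D3:**
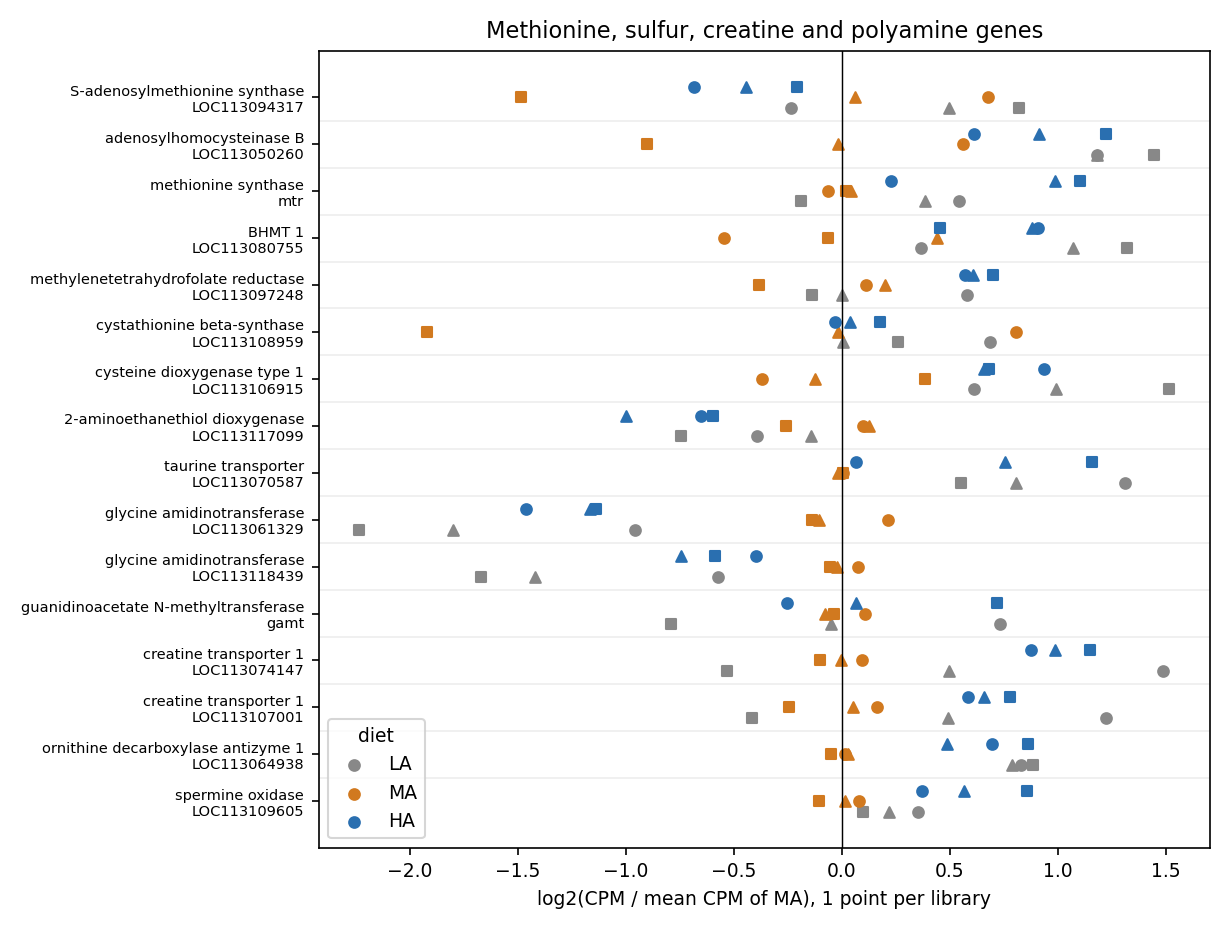
A set of 16 genes of methionine, sulfur, creatine and polyamine metabolism, as log2 of CPM over the mean CPM of MA, with 1 point per library (circle, square and triangle for libraries 1, 2 and 3). The glycine amidinotransferase copies lay left of 0 in all HA libraries and the creatine transporter copies right of 0, while cystathionine beta-synthase spread across 0 in MA.

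Amino acid supply and translation genes gave no call. Of 45 amino acid transporters, 5 were higher (11.1%) and none lower at an unadjusted p under 0.05, with an adjusted p of at least 0.256, but without HA1 the counts were 5 higher and 5 lower with a median of -0.26 in place of 0.02. With the mapped-share rank as a block they were also 5 and 5. The large neutral amino acid transporter LOC113058529, which carries methionine among others, had 46.4, 33.7 and 41.1 CPM in MA and 116, 53.8 and 87.6 CPM in HA (1.09 ± 0.27, adjusted p = 0.26). The sodium-coupled neutral amino acid transporter LOC113050216 had 3.44 to 5.56 CPM in MA and 7.02 to 11.6 CPM in HA. HA was the higher group for both without overlap, although the HA libraries spread widely for the first. Of 190 cytosolic ribosomal protein genes, 154 (81.1%, beside 51.4% of all genes) had positive log2 fold changes, with a median of 0.18 that became -0.02 without HA2, and 4 were higher (2.11%) and 3 lower at an unadjusted p under 0.05, and their summed level overlapped, at 43490 to 50620 CPM in MA and 41860 to 66210 CPM in HA. Among 123 genes of growth and mTOR signaling, the insulin receptor copy LOC113040224 had 0.806 to 0.908 CPM in MA and 2.07 to 2.87 CPM in HA (adjusted p = 0.29), and 9 members were higher (7.32%) and 4 lower at an unadjusted p under 0.05. The higher count was 2 without MA2, 3 without HA3, 4 without MA3 and 5 without HA1 or LA3.

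Among sarcomere genes, negative log2 fold changes outnumbered positive ones. Of 81 fast sarcomere genes, 1 called gene rose and 2 fell, beside 0.0209% and 0.0334% of all genes. At an unadjusted p under 0.05, 4 were higher (4.94%) and 8 lower (9.88%), beside 5.2% and 4.84% of all genes. Positive log2 fold changes numbered 26 (32.1%, beside 51.4% of all genes), and the median was -0.27. The summed level of the 81 genes overlapped between diets, at 319000 to 445200 CPM in MA and 308500 to 390400 CPM in HA. Of 15 slow and cardiac sarcomere genes, 4 were lower (26.7%) and 1 higher at an unadjusted p under 0.05 and none passed. Their summed level overlapped between diets, at 4371 to 8097 CPM in MA and 5609 to 8166 CPM in HA. Without MA2 the lower count was 3, and the list's median of -0.30 became 0.05 without HA2. Slow skeletal and cardiac troponin C (LOC113094721) had 0.512, 54.9 and 30.4 CPM in MA and 0.275 to 0.817 CPM in HA, and myosin-7 (LOC113095892) had 1.98, 19.6 and 9.62 CPM in MA and 0.207 to 1.19 CPM in HA. MA2 and MA3 were high for both, and MA1 lay near or inside the HA range. Myosin-binding protein H (LOC113050154), a thick filament protein, was the member on the higher side, at 741, 552 and 647 CPM in MA and 999, 913 and 958 CPM in HA (0.56 ± 0.18, adjusted p = 0.35). In the scaffold and Z-disc list of 118 genes, 16 were lower (13.6%) and 7 higher at an unadjusted p under 0.05 (10 lower without MA2), among them trim54, a microtubule-binding protein of the sarcomere, at 6.40, 6.42 and 6.89 CPM in MA and 1.59, 1.03 and 0.880 CPM in HA (-2.48 ± 0.38, adjusted p = 0.0795).

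Most matrix genes had negative log2 fold changes. Of 194 collagen and matrix genes, 1 passed (thrombospondin-1, above), beside 0.0543% of all genes. Positive log2 fold changes numbered 56 (28.9%, beside 51.4% of all genes). At an unadjusted p under 0.05, 27 were lower (13.9%) and 6 higher (3.09%). Without MA2 the lower count was 15 and without HA3 it was 13. The 85 collagen chains, grouped by name after the values were seen, summed to 3144 to 3846 CPM in MA and 2228 to 2953 CPM in HA, so HA and MA did not overlap. The LA libraries alone spanned 2272 to 4456 CPM, across most of the range of MA and HA. Metalloproteinase inhibitor 3 (LOC113048552), which restrains matrix breakdown, had 4.54, 12.1 and 9.37 CPM in MA and 2.56, 2.89 and 1.82 CPM in HA (-1.83 ± 0.42, adjusted p = 0.21). Collagen alpha-1(XIX) (LOC113092377) was one of the few on the higher side, at 5.97 to 9.78 CPM in MA and 14.1 to 20.9 CPM in HA.

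Nerve and Schwann cell markers lay lower in HA. None of the 37 tested passed, but 17 were lower (45.9%) and none higher at an unadjusted p under 0.05, with 7 positive log2 fold changes and a median of -0.65. The lower count was 17 without HA2, 12 without MA2, 10 without HA1, 9 without MA3 and 8 without HA3, and over the libraries left out 1 at a time the median was -0.70 to -0.53. Myelin basic protein (LOC113060025), a structural protein of the myelin sheath, had 22.6, 26.3 and 19.2 CPM in MA and 9.83, 7.23 and 10.1 CPM in HA (-1.33 ± 0.22, adjusted p = 0.0933). A second copy, LOC113120103, had 29.9, 37.2 and 34.8 CPM in MA and 15.4, 19.5 and 16.3 CPM in HA. Peripheral myelin protein 22 (LOC113056017) had 19.3, 22.5 and 19.1 CPM in MA and 8.79, 8.95 and 9.36 CPM in HA (-1.17 ± 0.29, adjusted p = 0.25). The diets were apart for each of these genes, with tight groups. The whole list summed to 448.5, 612.7 and 527.6 CPM in MA and 302.3, 357.7 and 318.0 CPM in HA. LA stood near HA, at 326.6, 284.5 and 291.5 CPM. The list's median log2 fold change was 0.625 for MA minus LA and 0.05 for HA minus LA. The part of nerve content of the samples in other results was not tested.

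Stress and immediate early genes were mixed. Of 196 heat shock protein genes, 21 were higher (10.7%) and 10 lower at an unadjusted p under 0.05, and the list's median of 0.12 became -0.01 without HA2. Without MA3 the counts were 11 higher and 5 lower, and without HA3 4 were lower. The 19 heat shock 70 kDa copies, grouped by name after the values were seen, had 16 positive log2 fold changes and summed to 156 to 224 CPM in MA and 339 to 350 CPM in HA. The 4 heat shock protein 30 copies tested, grouped likewise, had 2 positive and 2 negative log2 fold changes, and their sum was separate on the opposite side, at 133, 77.9 and 107 CPM in MA and 47.7, 29.8 and 41.7 CPM in HA. The 9 heat shock 90 copies overlapped, at 235 to 290.2 CPM in MA and 213 to 387 CPM in HA. Heat shock 70 kDa protein 1 (LOC113107563) had 6.40, 7.91 and 9.37 CPM in MA and 27.5, 14.7 and 18.8 CPM in HA (1.36 ± 0.27, adjusted p = 0.16). Of 56 immediate early genes, fosB fell, and 9 were lower (16.1%) against 2 higher at an unadjusted p under 0.05 (5 lower without HA3). Activating transcription factor 3 (atf3), a stress-induced repressor, had 24.4, 25.6 and 29.1 CPM in MA and 3.91, 13.2 and 7.66 CPM in HA (-1.68 ± 0.61, adjusted p = 0.40). Its diets were apart although the HA libraries spread widely. The gene was named from the amino acid response list, which had a median log2 fold change of 0.05. Of the 30 genes tested there, 1 was higher and 1, atf3, lower at an unadjusted p under 0.05.

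**Figure D4:**
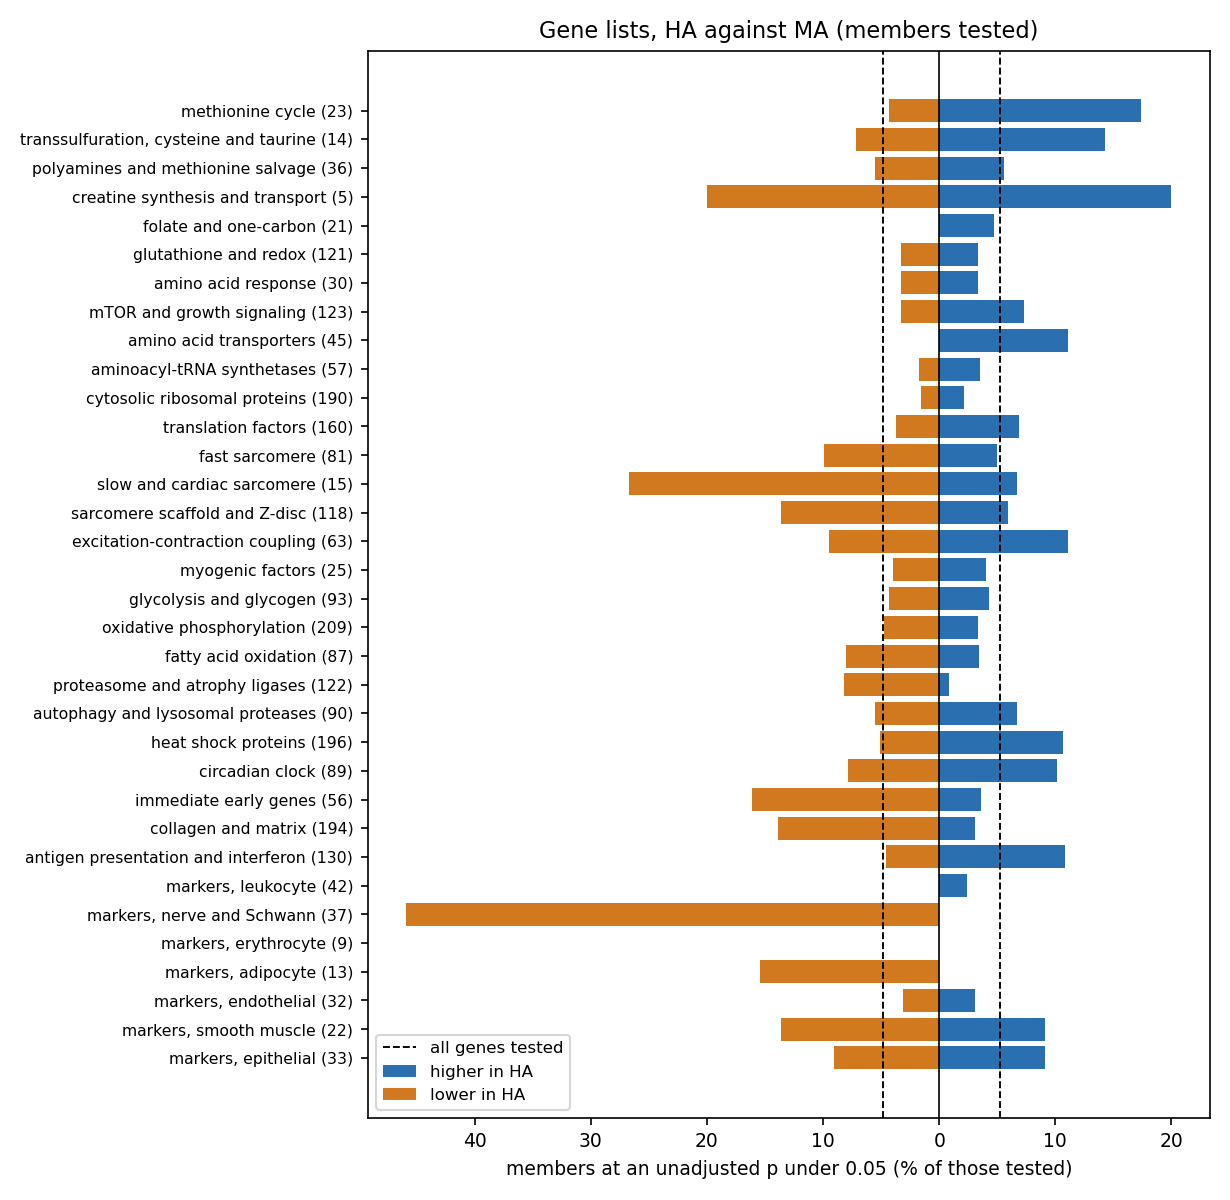
Percent of tested members of each gene list (number in parentheses) with an unadjusted p under 0.05, higher in HA to the right and lower to the left, with dashed lines at 5.2% and 4.84% for all genes tested. Nerve and Schwann cell markers reached 45.9% on the lower side and none on the higher side.

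Proteasome and atrophy ligase genes numbered 122, with 10 lower (8.2%) and 1 higher at an unadjusted p under 0.05 and none passing. The lower count was 4 without HA3 or MA1 and 6 without MA3 or LA3. A proteasome activator subunit (LOC113072463) had 16.8, 12.1 and 14.1 CPM in MA and 8.79, 7.92 and 8.54 CPM in HA (-0.76 ± 0.21, adjusted p = 0.28). Its diets did not overlap, but the sum of the 107 proteasome subunits did, at 1505 to 1983 CPM in MA and 1533 to 1699 CPM in HA. In the antigen presentation and interferon list of 130, 2 genes passed (above), beside 0.0543% of all genes. At an unadjusted p under 0.05, 14 were higher (10.8%) and 6 lower (8 and 2 without MA3, 9 and 2 without HA3). The interferon-induced GTP-binding protein LOC113044571, an antiviral effector, had 0.703, 0.389 and 0.372 CPM in MA and 3.24, 3.58 and 3.14 CPM in HA (2.74 ± 0.44, adjusted p = 0.0933).

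**Figure D5:**
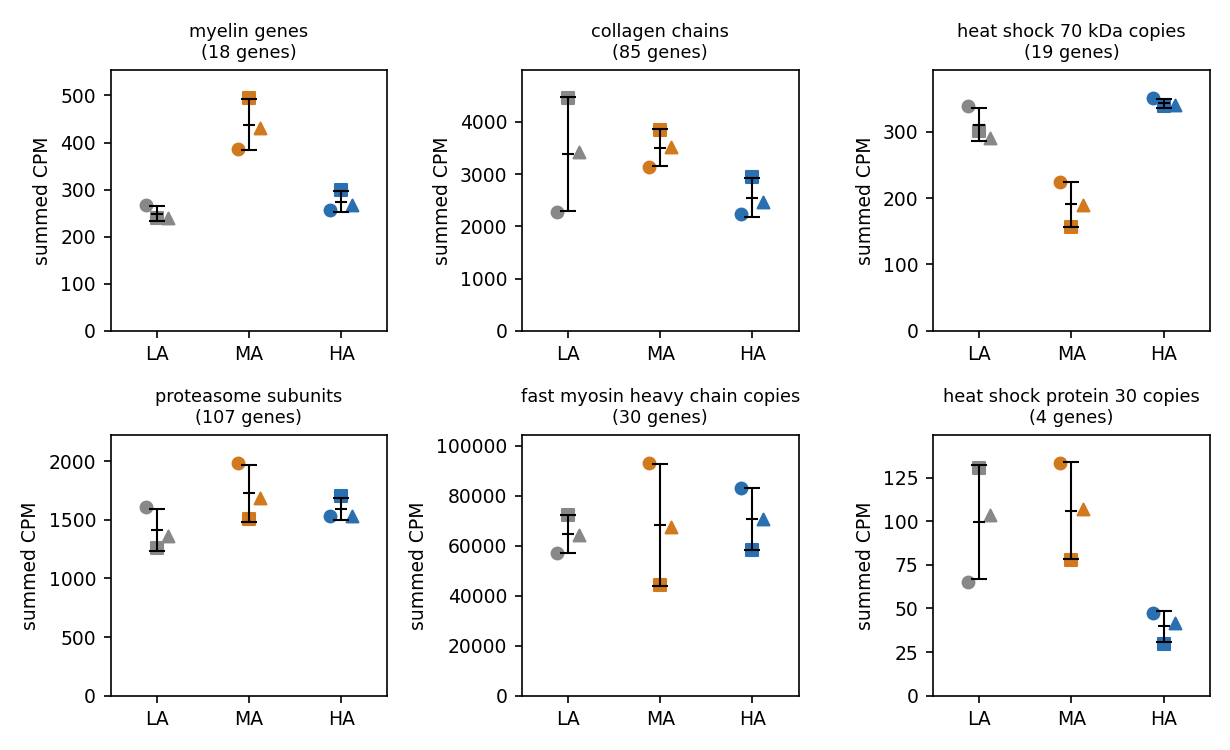
Summed CPM of tested members of 6 gene groups in every library (circle, square and triangle for libraries 1, 2 and 3), with the mean and SD of 3 libraries per diet and axes from 0. Myelin genes lay at 386 to 494 CPM in MA and 258 to 299 CPM in HA, heat shock 70 kDa copies at 156 to 224 and 339 to 350 CPM, heat shock protein 30 copies at 77.9 to 133 and 29.8 to 47.7 CPM, and fast myosin heavy chain copies overlapped.

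The summed levels of the leukocyte, erythrocyte, adipocyte, smooth muscle, endothelial and epithelial marker lists overlapped between diets. Markers of fibroblasts, collagens among them, and of satellite cells were not summed as lists of their own. The collagen chains described above did not overlap between HA and MA. Leukocyte markers, of which 42 were tested, had 1 higher and none lower at an unadjusted p under 0.05, and summed to 312.0 to 412.5 CPM in MA and 293.0 to 403.5 CPM in HA. The integrin alpha-M copy LOC113111995 was that member, at 1.18 to 1.53 CPM in MA and 3.37 to 4.46 CPM in HA (1.58 ± 0.26, adjusted p = 0.11). Of the 42, 24 had positive and 18 negative log2 fold changes, with a median of 0.08. HA libraries lay above all MA libraries for 5 and below them for 1, beside 9.2% and 8.55% of all genes. Among the 5 was transcription factor PU.1 (LOC113067202), at 2.465 to 3.04 CPM in MA and 3.51 to 3.66 CPM in HA (adjusted p = 0.59). Another was plastin-2 (LOC113109190), an actin bundler of leukocytes, at 10.5 to 13.7 and 15.6 to 16.8 CPM (adjusted p = 0.62). Erythrocyte markers had no member at an unadjusted p under 0.05 and summed to 682.7 to 992.6 CPM in MA and 532.7 to 1064 CPM in HA. Of 13 adipocyte markers, 2 were lower, and the list summed to 84.9 to 96.5 and 58.2 to 104 CPM. Of 22 smooth muscle markers, 17 had negative log2 fold changes, with a median of -0.38 that became 0.02 without MA2, and 3 were lower and 2 higher at an unadjusted p under 0.05. Caldesmon genes, which encode an actin-binding regulator, went both ways. LOC113043325 had 0.0649 to 0.434 CPM in MA and 1.83 to 3.92 CPM in HA (adjusted p = 0.0933). LOC113043566, annotated as non-muscle caldesmon, had 1.85 to 5.19 CPM in MA and 0.628 to 0.757 CPM in HA (adjusted p = 0.30). Smoothelin-like protein 2 (LOC113058469) had 17.4 to 23.0 CPM in MA and 8.49 to 13.8 CPM in HA (adjusted p = 0.29). Endothelial markers summed to 102 to 107 CPM in MA and 94.3 to 138 CPM in HA, and epithelial markers to 221 to 313 and 189 to 245.8 CPM.

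Of the 15 genes whose transcripts the study amplified by PCR, all were matched by accession and tested, and 1 passed, the fast myosin heavy chain copy LOC113094704. Lipoprotein lipase (LOC113040152), which releases fatty acids from circulating fat, had 4.03, 5.12 and 5.15 CPM in MA and 2.20, 1.31 and 1.45 CPM in HA. The diets did not overlap, and the log2 fold change was -1.52 ± 0.34 (adjusted p = 0.20). The other 13 overlapped between diets, with log2 fold changes from -0.40 to 0.68 and a smallest adjusted p of 0.615. Among them the myogenic factor MRF4 (LOC113062081) had 22.2, 27.6 and 29.8 CPM in MA and 29.2, 46.9 and 37.8 CPM in HA, and adenylosuccinate lyase (LOC113047978), an enzyme of purine synthesis, had 40.2, 36.6 and 29.96 CPM in MA and 35.3, 83.2 and 48.3 CPM in HA. The study's PCR found no significant difference in MyHC among diets. Whether its primers also amplify other fast myosin heavy chain copies was not tested, and the summed copies overlapped between HA and MA. By that PCR MRF4, MyoD, Nrf2, GPX1a and GSTP1 were highest in MA, and MyoG was highest in HA. It ranked all diets and had more replicates per diet than the 3 libraries here. For muscle development and lipid genes, MyoD, MyoG and LPL among them, the paper also reports PCR trends that matched its RNA-seq. In the counts here GSTP1 had a negative log2 fold change (-0.40), while MRF4, MyoD, Nrf2, GPX1a and MyoG had positive ones (0.03 to 0.52). Which fish the libraries shared with the PCR is not given in the sources used here.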

How the data were processed

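The deposited table gives a whole-number count and an FPKM value for each gene in 9 muscle libraries, with gene models of the goldfish assembly ASM336829v1. The FPKM values deposited by the authors equal the count over the gene length and the library's total count (largest relative deviation 3.6e-14) and were not used further. The sources used here do not give the aligner, the counter, the use of strand or how reads with several matches were placed, so antisense and near-identical genes cannot be separated. DESeq2 is named in the submitters' processing notes. Libraries were mapped to diets by title, and table columns to libraries by the column code in each description. The codes HA1 to HA3 there are those of the LA libraries and resemble the titles of the HA libraries, so reading the codes as diet names would exchange LA and HA. By description, the order of total counts equalled the order of uniquely mapped reads in the study's mapping table for 9 of 9 libraries, and with LA and HA exchanged only for the 3 MA libraries, which the exchange leaves in place. Of 76298 genes, 69688 were matched in the RefSeq gene table, 53017 had a description and 48369 a count.

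Counts were analysed with edgeR 4.0.16 in R 4.3.3. Genes passing filterByExpr (23946) were scaled by TMM (factors 0.890 to 1.15), and all 9 libraries were fitted by diet in 1 quasi-likelihood model with a common dispersion of 0.135 and 6 residual degrees of freedom. A gene was called when its p, adjusted by Benjamini-Hochberg, was under 0.05. The procedure was tested on simulated counts. The members, gene lists and rules were chosen with earlier results of these data known, and some list patterns were corrected by gene name after the files were read. Genes named are, per direction, up to 10 annotated genes of smallest p whose HA and MA libraries did not overlap (called genes first, then genes with at least 1 CPM in a diet), up to 4 genes of smallest p per list, the 3 genes of highest mean CPM in each methionine, sulfur, creatine and polyamine list, the 3 genes of highest mean count and the PCR targets. Some of the genes that the rule names are left out of the text. Alternatives were RLE size factors, no filter and a filter of 10 counts in every library, DESeq2 1.42.0, HA and MA libraries alone, the replicate number or mapped-share rank as a block, other thresholds, and leaving libraries out. No set test was run.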

Additional observations from a re-analysis of the deposited data

How the results depend on the processing

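The 13 calls remained 13 with RLE size factors, became 13 (10 of them shared) when every library had to hold 10 counts, 15 (8 shared) with only the HA and MA libraries, and 9 when a log2 fold change of 2 in either direction was also required. They rose to 321 with no filter on low counts, to 296 with DESeq2, to 98 with the mapped-share rank as a block, to 75 with neither LA1 nor HA2, and to 1294 at an unadjusted p under 0.05 with a log2 fold change of 1 or more in either direction. With libraries 1 and 2 alone there were 0 calls. Leaving out 1 library gave 0 to 75 calls (0 without HA3, 1684 genes at an unadjusted p under 0.05). The labels give replicate numbers no shared source, and the main fit did not treat the numbers as pairs. The deviations of HA and MA libraries of the same number correlated at 0.268, 0.263 and 0.0727. Where libraries 1 and 2 differed 4-fold, library 3 lay close to their mean (median log2 distance 0.185 in MA and 0.225 in HA). Its deviations were therefore small, and the last value cannot decide whether the numbers form pairs. Each library still correlated best with its own number (-0.26 to 0.0065 for different numbers), a pattern in the data and not the design. Deviations within a diet cancel out, so these correlations are not separate matches. The mapped-share order of libraries was the same in MA and HA, so for these libraries replicate number and mapped-share rank form the same block. The replicate block gave 27 calls (6 shared) with the HA and MA libraries and 0 with all 9, where 1880 genes had an unadjusted p under 0.05. All 13 called genes kept their direction in every alternative in which they were tested. Log2 fold changes reversed for gamt and the creatine kinase copy LOC113049569 with neither LA1 nor HA2 (-0.0816 and -0.094) and when 1 library was left out (-0.0811 to 0.43 for gamt and -0.0935 to 0.19 for LOC113049569, lowest without HA2, -0.84 to 0.0827 for S-adenosylmethionine synthase LOC113094317, highest without MA1, and -0.39 to 0.74 for cystathionine beta-synthase LOC113108959, lowest without MA2). The cause was not tested. Genes near 1 CPM rest on few counts per library, and depth was not varied.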

Other observations

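Energy metabolism gave 1 call, the complex III subunit described above, and copies with opposite differences. The aldolase A copy LOC113050324, of the glycolytic enzyme that splits fructose bisphosphate, had 19.1, 128 and 70.3 CPM in MA and 17.1, 3.37 and 8.54 CPM in HA (-2.90 ± 0.71, adjusted p = 0.24), with MA2 highest. The gamma catalytic chain of phosphorylase b kinase (LOC113079985), which switches on glycogen breakdown, had 0.843 to 1.92 CPM in MA and 4.21 to 5.78 CPM in HA (adjusted p = 0.23). The glycolysis and glycogen list summed to 52540 to 63360 CPM in MA and 40700 to 47690 CPM in HA, so the diets did not overlap, while 4 of 93 members were higher and 4 lower at an unadjusted p under 0.05. The beta subunit of the mitochondrial trifunctional enzyme (LOC113120669), of fatty acid oxidation, had 5.64 to 6.91 CPM in MA and 11.5 to 14.2 CPM in HA (1.01 ± 0.20, adjusted p = 0.16).

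Clock and membrane genes also showed separate libraries without a call. Cryptochrome-2, a repressor of the circadian clock, had a copy on the higher side, LOC113066807, at 0.806 to 1.56 CPM in MA and 3.91 to 6.13 CPM in HA, and a copy on the lower side, LOC113097561, at 4.09 to 6.51 and 1.17 to 3.11 CPM. Junctophilin-1 (LOC113045586), which holds the sarcoplasmic reticulum against the T-tubule, had 260, 363 and 331 CPM in MA and 613, 808 and 676 CPM in HA (1.14 ± 0.30, adjusted p = 0.28). The muscle chloride channel protein 1 copy LOC113069343, which stabilises the resting membrane, had 12.98, 15.4 and 15.4 CPM in MA and 9.04, 4.96 and 7.73 CPM in HA (-1.01 ± 0.26, adjusted p = 0.27). LA stood at 622 CPM for junctophilin-1 and 5.89 CPM for the chloride channel.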
